A study of Schizosaccharomyces pombe with 127 samples.

Results

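The genes described here encode the later complexes of the mitochondrial respiratory chain, the ATP synthase and proteins that assemble them in the fission yeast Schizosaccharomyces pombe. They were taken by name: every gene whose symbol on the array annotation is cox, qcr or atp followed by digits alone, together with cyc1, cyt1 and rip1. This gave 40 genes of 4929 measured, all of them encoded in the nucleus. By role they fell into 27 structural subunits, the electron carrier cytochrome c (cyc1) and 12 genes for assembly. The subunits comprised 8 of complex III, 7 of complex IV and 12 of the ATP synthase, of which 5 form the catalytic F1 head and 7 the membrane part (Fo) and the stalks. The assembly genes comprised 7 for complex IV and 5 for the ATP synthase. Each gene had 2 probes, and all 40 passed the filter on missing values. Subunits encoded in mitochondrial DNA, and subunits that carry other symbols, were not analysed as members.

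Electrons enter the chain through dehydrogenases, pass by ubiquinone to complex III (ubiquinol-cytochrome c reductase), travel on cytochrome c to complex IV (cytochrome c oxidase) and there reduce oxygen. The protons moved on the way drive the ATP synthase, a rotary enzyme whose membrane part turns a shaft inside the F1 head. Fission yeast ferments glucose readily, and its mitochondrial subunits are made from both nuclear and mitochondrial genes, so that dedicated assembly proteins bring heme, copper and membrane-inserted subunits together. Roles of single subunits given below are largely those known from the budding yeast Saccharomyces cerevisiae and from mammals.

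The arrays compared single-gene deletion strains, the majority without a protein kinase, after 60 min in minimal medium without nitrogen and before it (0 min, the same medium with nitrogen). Cultures were grown at 30 °C to an optical density of about 0.3. The groups were 62 deletion strains and 1 wild-type array at 60 min, and 63 deletion strains and 1 wild-type array at 0 min. The deleted genes atf1, cyr1, cgs1 and rst2 do not encode a kinase. Strain RNA was labelled with Cy5 and hybridised against Cy3-labelled RNA of a wild-type pool, which all arrays share. Mating type, auxotrophies and the make-up of the pool were not given in the sources used here. A level below is the log2 ratio of strain to pool on 1 array, centred on the median gene of that array, and a change is the level at 60 min minus that at 0 min in the same strain. In bulk cultures more transcript per cell and more cells with the transcript cannot be told apart.

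Each strain had 1 array per time, so the strain was the unit of every test and p-values rest on how strains differ, not on repeat cultures. At 60 min 47 of 61 strains with a probe had the lowest value of all strains for their own deleted gene, and at 0 min 51 of 61. It was lowest at both times in 45 strains and at 60 min alone in 2. In 6 strains, labelled byr1, atf1, ppk22, cdk11, ppk33 and srb10, it was lowest at 0 min alone. For byr1, atf1, ppk22 and cdk11 the loss seen at 0 min was not seen at 60 min, so these labels are in doubt; ppk33 (-0.33 at 60 min and -0.83 at 0 min against the other strains) and srb10 (-0.37 and -0.63) are not cleared either. In 8 strains, labelled chk1, hri1, mde3, mug27, ppk38, spo4, srk1 and wis1, the own gene was lowest at neither time, and their labels are not borne out. One strain (hal4) had no array at 60 min and stayed out of the paired fit. The number of arrays limits the precision. No label names an array series. The array series used below were inferred from the number that ends each array title. Strains with numbers under 1200 were taken as the main series. Higher numbers were split into those of ppk18, ppk27 and ppk32 and those of cyr1, cgs1 and rst2. Whether these series were separate batches was not given in the sources used here.

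Most subunits rose when nitrogen was removed, and the ATP synthase rose most, with arrays centred on their median. By limma with strain as block and Benjamini-Hochberg adjustment over all 4929 genes, 29 of the 40 genes were higher at 60 min, 7 were lower and 4 were not called at an adjusted p of 0.05. The counts were 29 and 7 as well in the 45 strains with their own gene lowest at both times, where atp20 lost its call and atp10 gained one. Over all genes the same test called 46.9% higher and 40.5% lower. With 62 strains even small changes pass, so a limit of 1.5-fold was added: 10 of the 40 genes rose past it and 0 fell past it, against 17.3% and 15.5% of all genes. The 10 were atp1, atp2, atp3, atp4, atp5, atp7, atp14 and atp17 of the ATP synthase and qcr6 and qcr10 of complex III. The median change was 0.55 over the 27 subunits, -0.082 over the 12 assembly genes and 0.040 over all genes. Under quantile normalization 9 of the 27 subunits were called higher and 12 lower, with a median of -0.053.

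The complexes differed in size of change. The median change was 0.65 for the ATP synthase, with 10 of 12 subunits called higher and 1 lower. It was 0.45 for complex IV, with 7 of 7 higher, and 0.44 for complex III, with 8 of 8 higher. Within the ATP synthase the Fo and stalk genes had a median of 0.88 and the F1 genes 0.60, an order that quantile normalization turned (-0.096 and 0.20). Of the complex IV assembly genes 4 rose and 2 fell (median 0.29). Of the ATP synthase assembly genes 4 fell and 0 rose in limma, also at an unadjusted p under 0.05 (median -0.32). Levels at 60 min and 0 min overlapped over the strains in each of the 40 genes, whereas they kept apart in 6.21% of all genes.

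These directions hold for arrays centred on their median and depend on that choice. The genes of an array spread more widely at 60 min, with a mean SD of 0.943, than at 0 min, with 0.330. The median subunit stood at rank 631 from the top among 4929 genes at 60 min and at rank 305 at 0 min, so the level was higher at 60 min while the place among all genes was not. Quantile normalization, which gives every array the same spread, turned the median change to -0.088 for complex III, -0.091 for complex IV and -0.036 for the ATP synthase. It left 13 of the 40 genes higher and 18 lower. The assembly genes had a median of -0.090 under it, but of 0.016 with the first probe of each gene alone, so the sign of their median depends on the probe. The genes atp1, atp2, atp3, atp7, qcr2, qcr6, cox12, cox13, cyt1, cox10 and cox18 were higher under both normalizations.

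**Figure D1:**
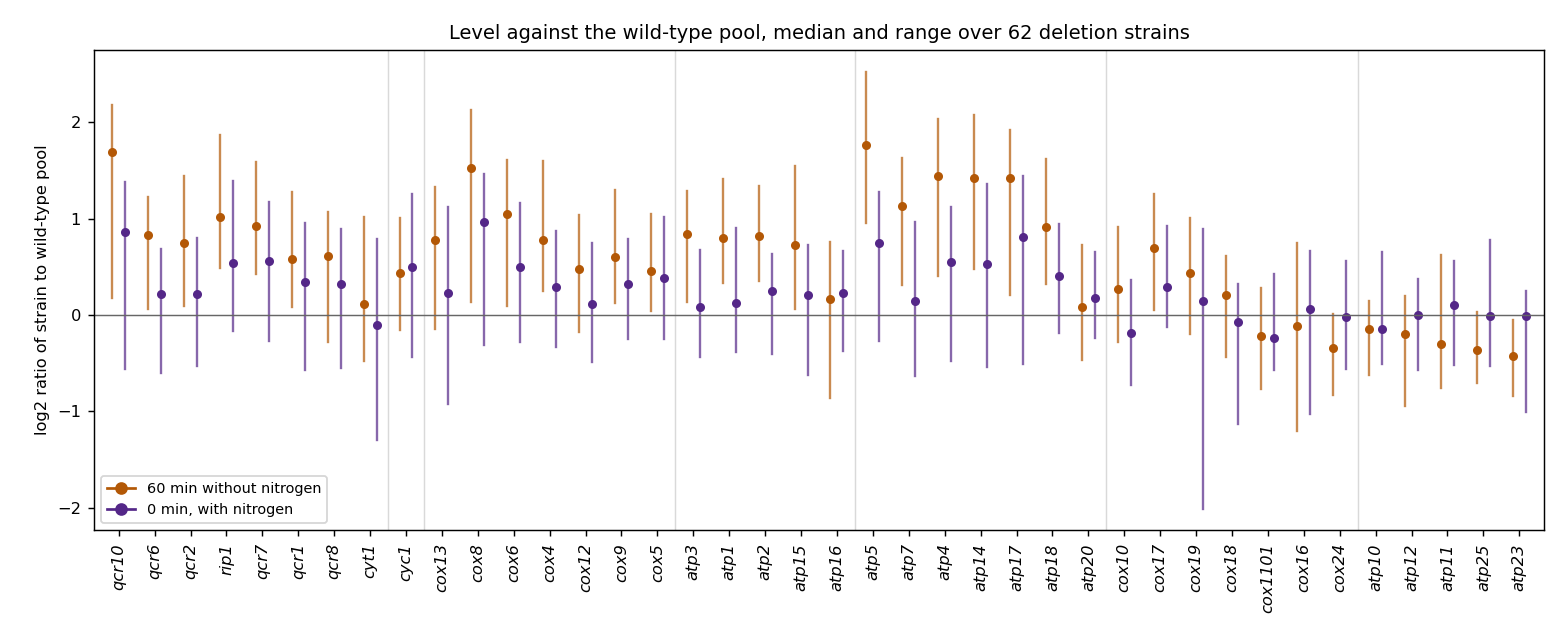
Level of each gene against the wild-type pool (vertical axis, log2 ratio centred on the array median) at 60 min without nitrogen and at 0 min; points are medians and lines run from the lowest to the highest of 62 deletion strains, with grey lines between classes. Medians of most subunits lie above 0 at both times, with atp5 at 1.77 and 0.75 and cox8 at 1.52 and 0.96, and the ranges at 60 min and 0 min overlap for every gene.

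Of the complex III genes, qcr10, a small membrane subunit, stood highest. Its level had a lowest value of 0.18, a median of 1.69 and a highest value of 2.18 at 60 min, against -0.56, 0.87 and 1.38 at 0 min. It was already far above the pool before starvation, at rank 7 among all genes by its mean over strains. With arrays centred on their median it rose in all 62 strains taken one by one, by 0.82 on average. Its rank at 60 min was 176, and under quantile normalization its change was -0.72. The hinge protein gene qcr6 changed by 0.63 and the core protein gene qcr2 by 0.55. The smallest called rises beside that of cyt1, described next, were those of qcr8 (0.27), the core protein gene qcr1 (0.32) and qcr7 (0.38).

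The Rieske iron-sulfur protein, encoded by rip1, takes the first electron from ubiquinol. Its level ran from 0.48 through a median of 1.02 to 1.87 at 60 min, and from -0.17 through 0.54 to 1.39 at 0 min. The ranges overlapped, yet 59 of 62 strains were higher at 60 min, and the change was 0.49 (SE 0.042, adjusted p = 2.3e-17 in limma). Cytochrome c1, the heme subunit that passes the electron on, is encoded by cyt1. Its level was lowest at -0.48, median 0.12 and highest at 1.01 at 60 min, against -1.30, -0.10 and 0.79 at 0 min. It lay close to the pool at both times and had the smallest rise of the complex (0.23, SE 0.040, adjusted p = 4.2e-07 in limma), with 51 of 62 strains higher.

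Cytochrome c did not rise on average as the complexes on either side of it did. Over strains its change still had r = 0.43 with the mean change of the 27 subunits. The level of cyc1 had a lowest value of -0.16, a median of 0.44 and a highest value of 1.01 at 60 min, against -0.44, 0.50 and 1.26 at 0 min. The groups overlapped almost entirely, with 27 strains higher and 35 lower at 60 min. The change of -0.088 (SE 0.048) missed the threshold in limma (adjusted p = 0.077), whereas under quantile normalization it was -0.65 and was called. In 60 of 62 strains the mean of the 27 subunits rose by more than cyc1 did. The extremes of cyc1 were the gad8 deletion, at -0.0044 at 60 min and 1.13 at 0 min, and the strain labelled mde3, at 0.69 at 60 min and -0.44 at 0 min.

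Complex IV subunits rose by amounts between 0.076 (cox5) and 0.57 (cox13). The gene cox8 had the highest level of all 4929 genes at 0 min by its mean over strains. Its level was lowest at 0.14, median 1.52 and highest at 2.13 at 60 min, against -0.31, 0.96 and 1.47 at 0 min. Its rank at 60 min was 214. With arrays centred on their median it rose by 0.55, as did cox6 (0.55), while cox4 changed by 0.45, cox12 by 0.37 and cox9 by 0.30. Under quantile normalization cox8 (-1.15), cox6 (-0.17), cox9 (-0.091) and cox5 (-0.32) reversed. There cox4 changed by 0.00025, while cox12 (0.16) and cox13 (0.26) stayed higher. The call of cox5 was the weakest (adjusted p = 0.046 in limma) and was lost in an unpaired fit.

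The change of cox13 varied more between strains than that of any other subunit (SD 0.42). Its level had a lowest value of -0.15, a median of 0.78 and a highest value of 1.33 at 60 min, against -0.93, 0.23 and 1.12 at 0 min. Levels overlapped widely, but 58 of 62 strains were higher at 60 min, and the change was 0.57 (SE 0.052, adjusted p = 3.2e-16 in limma). Its lowest change was in the ppk25 deletion, at 0.28 at 60 min and 0.82 at 0 min, and its highest in the tea5 deletion, at 0.85 at 60 min and -0.69 at 0 min.

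With arrays centred on their median, the 4 ATP synthase genes with the highest change were all of the peripheral stalk, the arm that holds the F1 head still. Under quantile normalization atp5 (-0.32), atp4 (-0.053) and atp14 (-0.020) reversed, and the highest were atp7 (0.56) and the F1 genes atp3 (0.48) and atp1 (0.40). The oligomycin sensitivity conferring protein, encoded by atp5, joins that arm to the head. Its level ran from 0.95 through 1.77 to 2.53 at 60 min and from -0.27 through 0.75 to 1.27 at 0 min. All 62 strains were higher at 60 min, although the lowest starved strain lay below the highest unstarved one. The change was 1.00 (SE 0.050, 2.01-fold, adjusted p = 3.1e-29 in limma).

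The stalk subunit d gene, atp7, had levels from 0.32 through 1.13 to 1.63 at 60 min and from -0.63 through 0.15 to 0.97 at 0 min. It began near the pool, unlike atp5, and rose by 0.96 (SE 0.041, adjusted p = 4.8e-33 in limma) with 62 of 62 strains higher. Subunit b, the membrane anchor of the arm, is encoded by atp4. Its levels ran from 0.41 through 1.44 to 2.04 at 60 min and from -0.48 through 0.55 to 1.12 at 0 min. The change was 0.89 (SE 0.038, adjusted p = 6.4e-33 in limma), with the atg1 deletion the 1 strain of 62 that was lower. The subunit h gene, atp14, had levels from 0.48 through 1.43 to 2.07 at 60 min and from -0.54 through 0.53 to 1.36 at 0 min. It changed by 0.88 (SE 0.046, adjusted p = 7.4e-28 in limma), again with atg1 as the 1 exception.

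Among the F1 genes, atp3, which encodes the turning shaft (gamma), rose most (0.76). The genes of the alpha and beta subunits, which form the catalytic ring, followed with 0.68 for atp1 and 0.60 for atp2, and atp15, the epsilon subunit gene, with 0.51. The delta subunit gene atp16 was not called (-0.060, adjusted p = 0.17 in limma). Its probes disagreed, with changes of 0.54 and -0.66, so no direction can be given for it. In the membrane part atp17 changed by 0.62 and atp18 by 0.52. The subunit g gene atp20, known from budding yeast for joining ATP synthases into dimers, was the 1 subunit of 27 called lower (-0.083, adjusted p = 0.0056 in limma), with 37 of 62 strains lower.

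**Figure D2:**
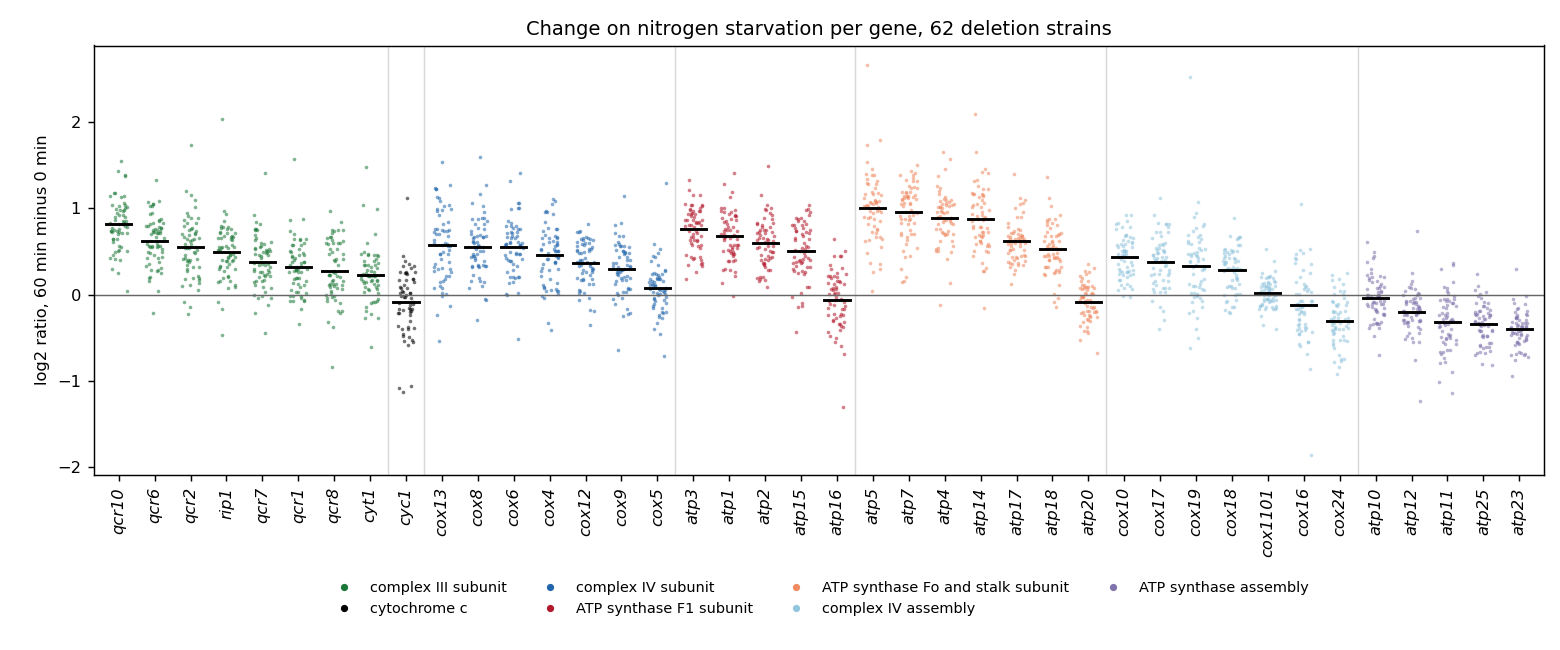
Change of each gene (vertical axis, log2 ratio at 60 min minus 0 min, arrays centred on their median), 1 point per deletion strain (62 per gene), black bars for the mean, ordered by class and within a class by mean. Means run from 1.00 for atp5 to -0.40 for atp23, with the bars of 25 subunits above 0 and those of the ATP synthase assembly genes below it; under quantile normalization the medians of the 3 complexes lay between -0.091 and -0.036.

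The assembly genes did not share one direction. For complex IV, cox10, whose enzyme makes the farnesylated heme precursor of the oxidase, changed by 0.44, and cox17, a copper chaperone, by 0.38. The inner membrane insertion factor cox18 changed by 0.29. The copper delivery gene cox1101 showed no called change (0.019, adjusted p = 0.42 in limma); it shares an older name with a second copy, cox1102, and the probes may not separate them.

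Another copper-binding factor, cox19, had the largest SD of the change of all 40 genes (0.46). Its level was lowest at -0.20, median 0.44 and highest at 1.00 at 60 min, against -2.01, 0.15 and 0.90 at 0 min. The low end at 0 min came from 1 strain, the rst2 deletion, with 0.51 at 60 min and -2.01 at 0 min; without that strain the SD was 0.36. The change was 0.33 (SE 0.057, adjusted p = 2.0e-07 in limma), with 49 of 62 strains higher. The membrane protein gene cox16 had levels from -1.20 through -0.11 to 0.75 at 60 min and from -1.02 through 0.06 to 0.66 at 0 min. It was slightly lower at 60 min in 40 of 62 strains (-0.12, SE 0.052, adjusted p = 0.021 in limma), and its lowest change was in the ppk25 deletion, at -1.20 at 60 min and 0.66 at 0 min. The gene cox24, named in budding yeast for maturation of the mitochondrial cox1 transcript, had levels from -0.83 through -0.35 to 0.01 at 60 min and from -0.56 through -0.02 to 0.56 at 0 min. It was lower at 60 min in 52 of 62 strains (-0.30, SE 0.035, adjusted p = 2.0e-12 in limma), but the first probe gave 0.15 and the second -0.75, so its direction depends on the probe.

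Of the 5 ATP synthase assembly genes 4 were lower at 60 min, and atp10 was not called (-0.038, adjusted p = 0.26 in limma). The most consistent fall was that of atp23, a protease and chaperone for the mitochondrially encoded subunit a in budding yeast. Its level ran from -0.84 through -0.43 to -0.05 at 60 min and from -1.01 through -0.01 to 0.25 at 0 min. It was lower at 60 min in 61 of 62 strains, the exception being rst2, and the change was -0.40 (SE 0.027, 0.757-fold, adjusted p = 2.7e-22 in limma). The probes gave -0.27 and -0.53.

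The gene atp25, needed in budding yeast for the ring of membrane subunits, had levels from -0.71 through -0.36 to 0.04 at 60 min and from -0.53 through -0.01 to 0.78 at 0 min. It was lower at 60 min in 57 of 62 strains (-0.34, SE 0.030, adjusted p = 8.3e-17 in limma). The chaperones of free F1 subunits are Atp11 for the beta and Atp12 for the alpha subunit. The level of atp11 ran from -0.76 through -0.30 to 0.63 at 60 min and from -0.52 through 0.11 to 0.56 at 0 min, and 54 of 62 strains were lower at 60 min (-0.32, SE 0.039, adjusted p = 2.2e-11 in limma). Here too the fall rests on 1 probe, with -0.01 for the first and -0.63 for the second. The fall of atp12 was smaller (-0.20) and was shared by both probes (-0.19 and -0.21).

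Set side by side within each strain, with arrays centred on their median, the ATP synthase rose more than complex III and complex IV in most strains. The mean change of the ATP synthase subunits exceeded that of complex III by 0.15 ± 0.11 (SD, n = 62) and was the larger in 57 of 62 strains. It exceeded that of complex IV by 0.20 ± 0.083 (SD, n = 62) and was the larger in 61 of 62. At 0 min no such order existed: the ATP synthase mean was above that of complex III in 30 of 62 strains and above that of complex IV in 21. Under quantile normalization the mean margins kept their sign but varied more. They were 0.11 ± 0.16 over complex III, positive in 48 strains, and 0.20 ± 0.17 over complex IV, positive in 55 (SD, n = 62 each). The difference of complex IV from complex III was -0.050 ± 0.13 (SD, n = 62), within the spread between strains.

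The Fo and stalk mean exceeded the F1 mean at both times, by 0.48 ± 0.18 at 60 min and by 0.29 ± 0.19 at 0 min (SD, n = 62 each). The difference of the 2 changes was 0.19 ± 0.13 (SD, n = 62) and reversed to -0.31 under quantile normalization. The F1 mean over 5 genes includes atp16 (-0.060), whose probes disagreed (0.54 and -0.66). The Fo and stalk mean over 7 genes includes atp20 (-0.083). How far the difference rests on atp16 was not tested. The mean of the subunits of the ATP synthase changed by more than the mean of its assembly genes in all 62 strains, with a margin of 0.87 ± 0.31 (SD), which under quantile normalization was 0.19 and positive in 46. For complex IV the margin over its assembly genes was 0.26 ± 0.26 (SD, n = 62) and was positive in 53 strains, but it reversed to -0.30 under quantile normalization and was then positive in 9.

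Strains with a larger rise in one complex had a larger rise in the others. Over 62 strains the mean change of the ATP synthase had a Pearson r of 0.93 with that of complex IV and 0.88 with that of complex III, and complex IV had 0.83 with complex III. Without the atg1, vps15 and ppk25 deletions, which lie at the ends, the values were 0.91, 0.81 and 0.78, and within the 56 strains of the main array series 0.93, 0.88 and 0.83. These are descriptions: the points of a strain come from the same 2 arrays, and all arrays share the pool. Taken gene by gene, subunits had a median r of 0.75 (lowest -0.078) with the mean of the other subunits. Single genes outside the 40 had a median r of 0.017 with the subunit mean. The ATP synthase subunits had r = -0.44 with their assembly genes.

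**Figure D3:**
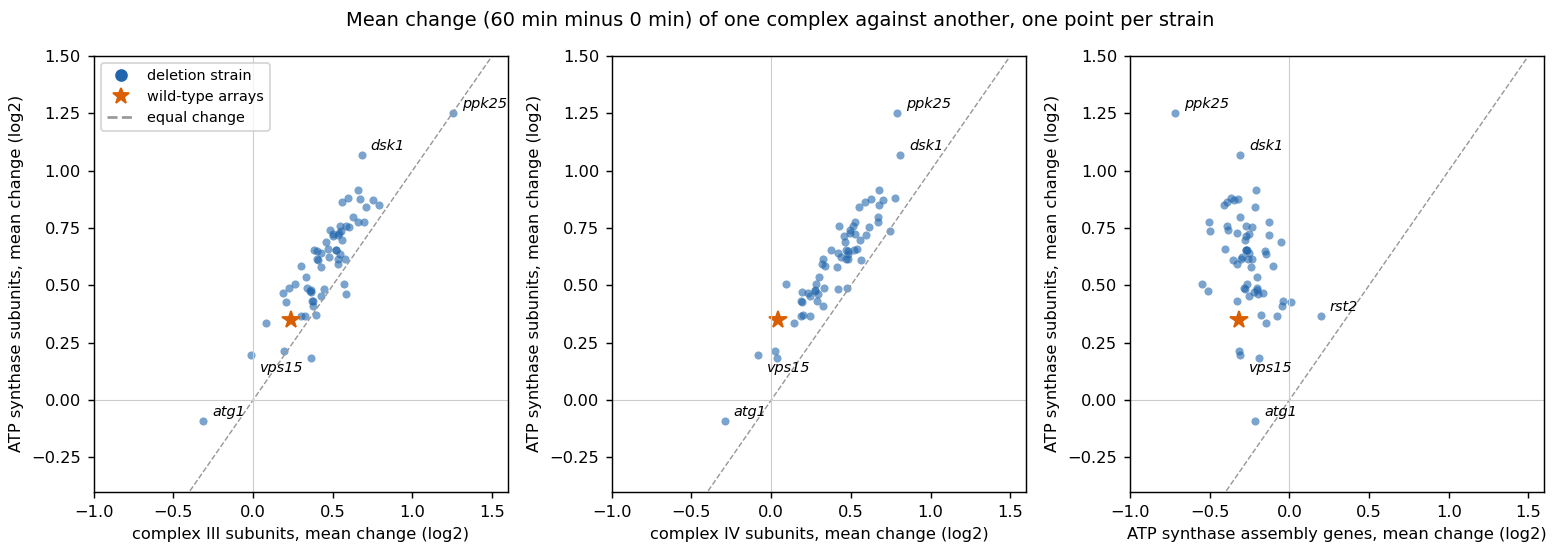
Mean change of the ATP synthase subunits (vertical axis, log2, 60 min minus 0 min) against that of complex III subunits, complex IV subunits and ATP synthase assembly genes (horizontal axes, log2), 1 point per deletion strain (62), a star for the wild-type arrays and a dashed line for equal change. Points follow the line in the first and second panels (r of 0.88 and 0.93) and lie to its left in 57 and 61 of 62 strains, while in the third panel the assembly genes lie below 0 in all but 2 strains.

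Levels did not vary as 1 block over all subunits. A second group was defined after its values were seen as the subunits whose 0 min levels correlated with cox13 above 0.7 over strains. It held 6 subunits drawn from all 3 complexes: qcr6 and qcr8 of complex III, cox12 and cox13 of complex IV, and atp7 and atp15 of the ATP synthase. The 15 pairs among them had a median r of 0.75 at 60 min (lowest 0.64), 0.81 at 0 min (lowest 0.71) and 0.67 for the change (lowest 0.46). The 0 min values restate the choice of the group, and the changes contain the same 0 min levels. Just inside the limit lay atp7, with r = 0.73 with cox13 at 0 min, and just outside it atp3 with 0.47; atp20 had 0.44 with cox13 but 0.68 with the mean of the 6. Their mean had r = 0.27 at 60 min, 0.033 at 0 min and 0.13 for the change with the mean of the other 21 subunits. Taken singly, the changes of atp7 (r = 0.61), cox12 (0.51) and qcr8 (0.47) did follow the mean of the other 26 subunits, and those of atp15 (0.26), qcr6 (0.17) and cox13 (-0.078) followed it less or not at all. Within the main array series alone the median r among the pairs was 0.74 at 60 min. At 0 min it was 0.78, which again restates the choice.

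The pattern extended beyond the 40 genes. Of 4889 other genes, 108 (2.21%) at 60 min and 353 (7.22%) at 0 min correlated above 0.7 with the mean of the 6. That mean ran from 0.012 through 0.75 to 1.14 at 60 min and from -0.57 through 0.22 to 0.68 at 0 min. At 60 min it was lowest in ppk26 (0.012, beside 0.81 for the other subunits), gcn2 and ppk18, and highest in sck2. At 0 min it was lowest in ppk1 (-0.57, beside 0.39 for the other subunits), the strain labelled ppk38 and ppk18, and highest in the strain labelled mde3 (0.68, beside 0.43). Whether these differences come from the strains or from the arrays was not tested, as each strain has 1 array per time.

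**Figure D4:**
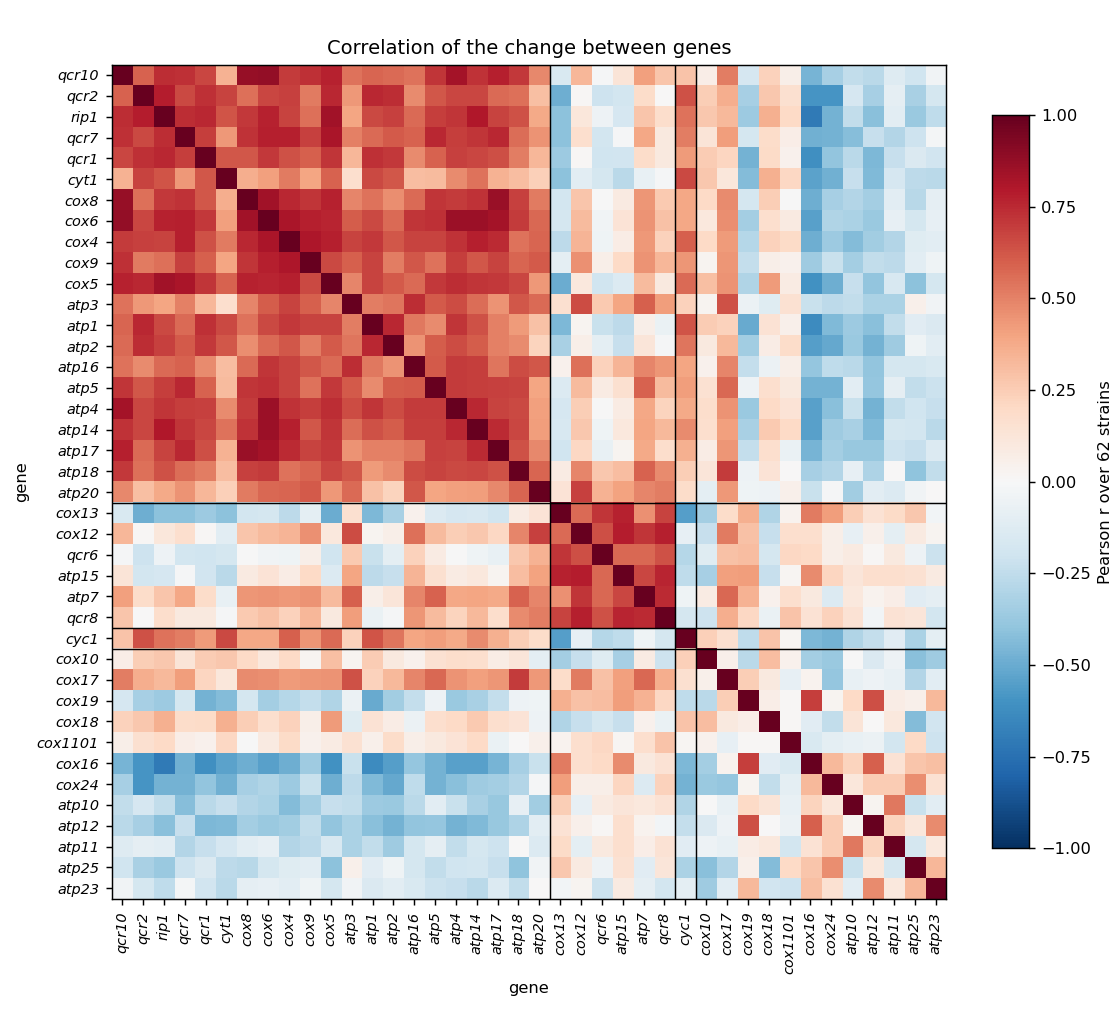
Pearson r over 62 strains between the changes of each pair of the 40 genes (colour, from -1 in blue to 1 in red); lines separate 21 subunits, the 6 subunits that vary with cox13, cyc1 and the 12 assembly genes. The 21 form one block of positive values and the 6 a second one, and cox16, cox24 and atp12 are negative against most of the 21 and positive against one another.

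In single strains the mean of the 27 subunits was higher at 60 min in 61 of 62. At least 21 subunits were higher in 56 strains, and all 27 in 13. The mean change had its median at 0.53. The exception was the strain without atg1, the kinase that starts autophagy. Its subunit mean was 0.54 at 60 min and 0.74 at 0 min, a change of -0.21, with 8 of 27 subunits higher at 60 min. Next came the strain without vps15, a regulatory kinase of the autophagy and vacuolar sorting lipid kinase, at 0.76 at 60 min and 0.70 at 0 min (0.060). In both strains the deleted gene had its lowest level of all strains at both times. Each is 1 pair of arrays with no replicate, so these are values without a test.

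The low change in atg1 and vps15 went with high levels before starvation, which lower the change by its definition as 60 min minus 0 min. At 60 min atg1 was the third lowest of 62 strains, and at 0 min the subunit means of the pair were the 2 highest. The change was the lowest of all strains in atg1 for 19 of 27 subunits. In atg1, rip1 stood at 0.93 at 60 min and 1.39 at 0 min, cox5 at 0.30 and 1.01, and cyc1 at 0.034 and 1.12. The exceptions there included atp3, at 0.72 at 60 min and 0.38 at 0 min, and cox13, at 0.56 and -0.17. The spread of all genes in the atg1 strain (SD of the change 1.01) was near the median of the strains (0.978). Without these 2 strains the counts of genes called higher and lower were 29 and 7, as with them.

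At the other end stood the strain without the kinase gene ppk25, with a subunit mean of 1.24 at 60 min and 0.11 at 0 min (1.13). It held the highest change for 15 of 27 subunits and the lowest for 5 of 12 assembly genes. In it atp5 stood at 2.40 at 60 min and -0.27 at 0 min, and rip1 at 1.87 and -0.17. Among assembly genes atp12 stood at -0.94 at 60 min and 0.30 at 0 min in ppk25. The same strain had the widest spread of change over all genes (SD 1.24), and its part in the subunit values was not tested. The strain without dsk1, a kinase of splicing factors, followed with 1.16 at 60 min and 0.27 at 0 min (0.89).

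Strains also differed in level at each time, and the array series, inferred from the array numbers, moved with it. The 3 strains of the second array series, ppk18, ppk27 and ppk32, had 60 min subunit means between 0.35 and 0.70, against 0.49 to 1.25 in the 56 strains of the main series. Their 0 min means lay between -0.12 and -0.011, below the 0.11 to 0.74 of the main series. Their changes lay between 0.37 and 0.77, inside the range of the main series. Strain and array series cannot be told apart here.

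**Figure D5:**
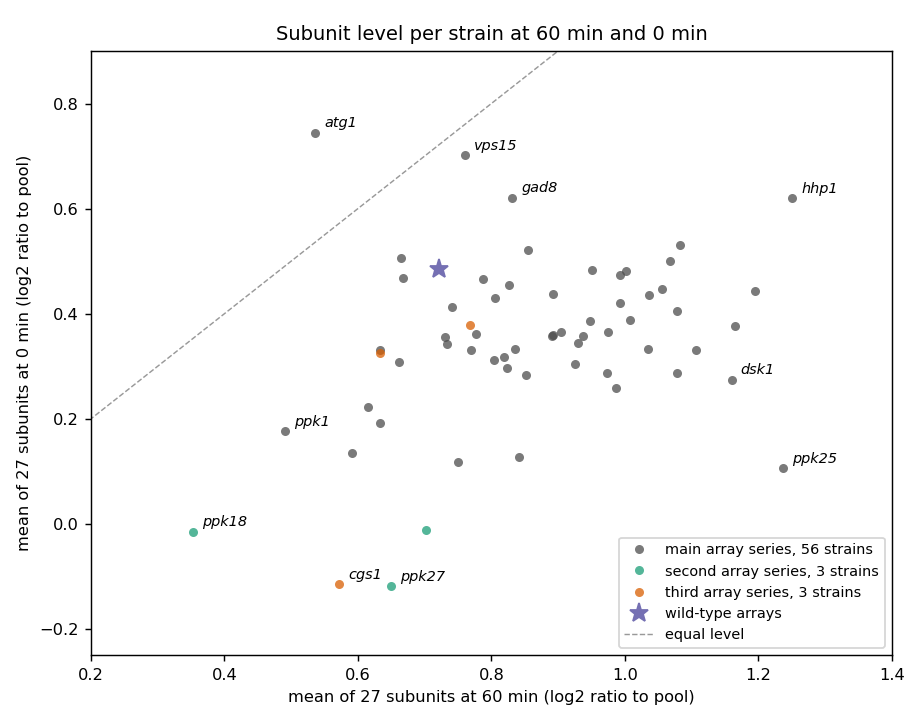
Mean level of the 27 subunits per strain at 60 min (horizontal axis) and 0 min (vertical axis), both as log2 ratio to the pool, coloured by array series, with a star for the wild-type arrays and a dashed line for equal level. All strains but atg1 lie to the right of the line, and the 3 strains of the second series and cgs1 lie at or below -0.011 at 0 min.

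The strains of the cyclic AMP pathway made up the third array series, so strain and array series cannot be told apart for them either. The subunit mean was 0.77 at 60 min and 0.38 at 0 min in cyr1 (no adenylate cyclase), 0.57 and -0.12 in cgs1 (no regulatory subunit of protein kinase A), and 0.63 and 0.33 in rst2 (no zinc-finger activator). In cgs1, 11 of 27 subunits had their lowest 0 min level of all strains, cox8 with -0.31 and qcr10 with -0.56 among them. The assembly genes had their highest mean change of all strains in rst2 (0.48), with a mean of 0.12 at 60 min and -0.36 at 0 min. For 6 of 12 assembly genes rst2 had the lowest 0 min level of all strains, such as cox18, at -0.24 at 60 min and -1.13 at 0 min, and atp23, at -0.72 and -1.01. For 3 of the 12, cox1101, cox24 and atp25, it had the highest 0 min level, with atp25 at -0.037 at 60 min and 0.78 at 0 min. It also had the widest spread over all genes at 0 min (SD 0.741, where the median strain had 0.311), and the part of that spread was not tested.

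The wild-type arrays gave subunit means of 0.72 at 60 min and 0.48 at 0 min, a change of 0.24, with 18 of 27 subunits higher. Of the 62 deletion strains 5 had a smaller change. By the numbers in their titles these 2 arrays fall in different array series. The label fields of the 60 min array also disagree on whether it is wild type. For these reasons no test was made of the deletion strains against the wild-type arrays. The level at 0 min above 0 in this array, as in most strains, is a difference from the pool.

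Sets of strains from one pathway each were compared with the rest by limma, over all 4929 genes. For the stress MAP kinase cascade (strains labelled wis1 and wis4) 0 of the 40 genes were called for the change, with 0% of all genes called and 3 of the 40 at an unadjusted p under 0.05 (atp17, cox16 and cox8), a p reached by 9.05% of all genes. For the mean of both times 0 were called, with 0.0812% of all genes, and 1 had such a p (cox18), against 10.6% of all genes. The smallest adjusted p of the 40 was 0.46 in limma. In the strain labelled wis1 the wis1 level differed from the mean of the other strains by -0.27 at 60 min and by 0.056 at 0 min, so its label is not borne out; with wis4 alone 0 of the 40 were called for the change and 0 for the mean.

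For the AMP-activated kinase strains (ssp1 and ssp2) 0 of the 40 were called for the change (0% of all genes), with 1 at an unadjusted p under 0.05 (qcr10), against 5.25% of all genes. For their mean of both times it was again 0 (0.0609% of all genes), with 1 such gene (atp12), against 3.94% of all genes. For the TOR-linked kinases (gad8, sck2 and psk1) 0 of the 40 were called by limma for the change (0% of all genes) and 0 for the mean (0.0203%), with 0 at an unadjusted p under 0.05 in either. The median difference of the 40 genes from the other strains lay between -0.089 and 0.083 over the 6 comparisons. A set of 2 or 3 strains limits the differences that such a fit can detect.

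Other genes of respiration were read from the fit of the change on starvation, by lists drawn up with earlier results of these data known. That fit called 46.9% of all genes higher and 40.5% lower. Succinate dehydrogenase (complex II), which feeds ubiquinone from the citric acid cycle, had 4 of 4 genes higher with a median change of 0.46, against 1 of 4 under quantile normalization (median 0.064). Its membrane anchor gene sdh3 changed by 0.88, the flavoprotein gene sdh1 by 0.51 and the iron-sulfur gene sdh2 by 0.14. The remaining gene was listed as sdh4, a synonym of the gene named tim18 (0.41, probes 0.13 and 0.69). Whether it belongs to complex II was not checked. The mean of these 4 followed the 27 subunits over strains (r = 0.82, n = 62, same arrays). Of the dehydrogenases 4 of 4 measured were higher, among them ndi1 (0.94) and nde1 (0.68), NADH dehydrogenases that stand in for a complex I; under quantile normalization ndi1 was 0.67 and nde1 -0.0065. In ubiquinone synthesis 10 of 11 genes were higher, with a small median of 0.16 and the highest change in the lipid-binding coq9 (0.65).

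The inhibitor of the ATP synthase, inh1, which blocks its reverse reaction, changed by 1.27, more than any of the 40 genes, and was higher in 62 of 62 strains. The ADP/ATP carrier gene anc1 changed by 0.74. The third gene of that list, pic1, is named in fission yeast for a centromere protein and not for a carrier (-0.13). Of 14 further assembly factors 7 were higher and 6 lower, close to the shares over all genes (46.9% and 40.5%). Among them were cbp3, a complex III assembly gene, at 0.50 and the copper protein gene sco1 at -0.55.

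With arrays centred on their median, heme synthesis went the other way from the heme-carrying complexes. Under quantile normalization complex III and complex IV had medians below 0 as well (-0.088 and -0.091). Of 7 heme synthesis genes 6 were called lower and 0 higher (median -0.35), as under quantile normalization (-0.32). The largest falls were those of hem1 (-0.98), which encodes the first enzyme of the pathway, and hem2 (-0.50). The list mean was lower at 60 min in 62 of 62 strains, while over strains it had r = 0.50 with the subunit mean, so strains with a larger subunit change tended to have a smaller drop in heme genes. Of the CCAAT-binding factor, an activator of respiratory genes in yeasts, php2 (0.32), php3 (0.33) and php5 (0.88) were higher and php4, its repressing partner under iron shortage, lower (-0.22). The 7 lists held 4 (complex II), 4 (dehydrogenases), 11 (ubiquinone), 14 (assembly), 3 (inhibitor and carriers), 4 (CCAAT-binding) and 7 (heme) measured genes. Over these lists, pic1 included, 30 genes were higher and 14 lower, where 46.9% and 40.5% of all genes were. Under quantile normalization the counts were 22 and 12.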

How the data were processed

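Per the labels, RNA of each strain (Cy5) was hybridised against a wild-type pool (Cy3) on 2-colour arrays, and directions follow these dyes. The deposited table holds linear ratios of Cy5 over Cy3. How the authors scaled the ratios and corrected background was not given in the sources used here, and neither was signal over background. The 127 arrays carry 9858 probes, with array medians of the ratio between 0.932 and 1.093. Ratios of exactly 0 (6 in all) were set to missing, and the lowest other ratio was 0.018. Each ratio was turned into log2, centred on its array's median and averaged over the 2 probes of a gene. The probes of a gene correlated with a median r of 0.842 per array at 60 min and 0.620 at 0 min. Genes were named through the platform annotation and the gene table of assembly ASM294v3 (4791 of 4816 named genes matched). Probe coordinates are not given here, as their build is not stated.

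The change per gene was fitted with limma 3.58.1 (lmFit, eBayes) in R 4.3.3 over 62 strains, paired by the strain name in the array title, for genes measured in 80% of pairs or more. P-values were adjusted by Benjamini-Hochberg over 4929 genes. Tables were made with Python 3.11.15, numpy 2.4.6 and pandas 2.3.3, and the fits were tested on simulated data. Members, lists, classes and strain sets were chosen with earlier results of these data known. Described in full are the 4 members with the highest and the 4 with the lowest change, cyc1, cyt1, rip1 and the 3 with the largest SD of the change; qcr10, cox8, the strains beyond the 3 lowest and 3 highest of a complex, and the group around cox13 were picked after their values were seen. Strains labelled prk1, skp1 and spm1 are called srb10, gsk3 and pmk1. Alternatives covered centring, quantile normalization, single probes, pairing, strain subsets, the filter, eBayes settings and zeros.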

Additional observations from a re-analysis of the deposited data

How the results depend on the processing

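Quantile normalization changed the results most. Under it 13 members were higher and 18 lower, 0 rose and 4 fell by 1.5-fold or more, and the medians were -0.088 for complex III, -0.091 for complex IV and -0.036 for the ATP synthase. It makes the spread of the arrays alike (mean SD 0.638 at 60 min and 0.599 at 0 min). It reversed qcr10 (-0.72), rip1 (-0.28), qcr7 (-0.48), qcr1 (-0.053), qcr8 (-0.12), cox8 (-1.15), cox6 (-0.17), cox9 (-0.091), cox5 (-0.32), atp5 (-0.32), atp4 (-0.053), atp14 (-0.020), atp17 (-0.66), atp18 (-0.096), cox17 (-0.057) and the uncalled atp10 (0.11), and turned the change of Fo and stalk minus F1 (-0.31) and of complex IV minus its assembly genes (-0.30). It added calls for cyc1 (-0.65), atp16 (-0.23) and cox1101 (0.25), and ended those of cox4, atp15, cox19 and cox16. Using the first probe alone left 4 members lower and reversed cox24 (0.15) and the uncalled atp16 (0.54), with an assembly median of 0.016; the second alone gave 3 members with a fall of 1.5-fold or more. In the fit with no replicate block 28 members were higher and 7 lower, with cox5 lost. Ratios with no centring (which shift the median of all genes by 0.012), the 4 doubted pairs left out, no filter, robust and trended eBayes and zeros at the lowest ratio kept every call of the 40 members. Kinase deletions alone and the main array series alone each lost cox5. Leaving out the pairs of atg1 and vps15, chosen after seeing the data, kept every call too. The 45 strains with their own gene lowest at both times, chosen likewise, lost atp20 and gained atp10. Leaving out each strain of a set kept the members called at 0, the lowest and the highest value. With the median over subunits in place of the mean, ppk25 had a change of 1.36. The strain sets have 2 or 3 strains, single strains have no replicate, and signal over background is unknown. The planned setting with nuclear subunits alone is the same as the one reported, since all members are nuclear.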
